A study of Mus musculus with 7 samples.

Results

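The genes described here make, desaturate, elongate, store, carry and burn fatty acids, build and break down sphingolipids, or finish the lipid barrier of the epidermis. The list holds 42 genes in 11 classes set by function, and it was chosen with earlier results of these data known. A probe set counted for a gene if the platform annotation gave it that gene symbol alone, and each gene was represented by its brightest probe set, judged on the mean of the 7 arrays. On that rule 39 of the 42 genes were measured, out of 12393 named genes on the array, through 75 probe sets. Acsl1 and Acsl3, which activate long-chain fatty acids, and Abca12, which loads lipids into lamellar bodies, were not analysed here.

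Keratinocytes, which form the stratified epithelium of the skin, were taken from mice as primary cells, given small interfering RNA (siRNA) by transient transfection and collected after 48 h. Cells given Trp63-specific siRNA were measured on 5 arrays (replicates 1, 2, 3, 4 and 7), and cells given a non-specific control siRNA on 2 arrays (replicates 5 and 6). Trp63 encodes p63, a transcription factor needed for stratified epithelia, and the series asks what its silencing does to these cells. The labels name no strain or age of the mice and do not say that replicates came from separate cultures. The p-values below therefore rest on a spread between samples that may be technical, and the number of arrays limits the precision of every value.

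Keratinocytes rely on lipid metabolism for the water barrier of the skin. Very-long-chain fatty acids made by elongases are joined to sphingoid bases by ceramide synthases, the ceramides are glucosylated and packed into lamellar bodies, and epidermal lipoxygenases oxidise the linoleate they carry so that they can be bound to the cornified envelope. Sphingosine released from ceramide can be phosphorylated to the signalling lipid sphingosine-1-phosphate, which leaves the cell through a transporter or is cleaved by a lyase.

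The silenced gene was lower on all 5 Trp63 siRNA arrays. Its brightest probe set read 541, 519, 457, 504 and 492 with Trp63 siRNA and 1447 and 1683 with control siRNA, a log2 difference of -1.61 (SE 0.088, limma adjusted p = 1.0e-05). Median intensity lay between 207 and 214 on the 7 arrays. The ratio of the 3′ to the 5′ beta-actin control probe set, a measure of RNA integrity, was 1.14 to 1.25 with Trp63 siRNA and 1.30 to 1.36 with control siRNA, and that of Gapdh was 0.905 to 0.938 and 0.980 to 0.983, so RNA quality moved with the groups and its part in the results was not tested. Melanocyte markers were high on silenced replicates 1 and 2 and control replicate 5 and low on the other arrays, and bacterial spike transcripts were high on silenced replicates 2, 3 and 7. Of 9 measured keratinocyte markers 8 fell and none rose. Their summed intensity was 50299 to 56023 with Trp63 siRNA and 67798.5 to 69201 with control siRNA. They were Krt5, Krt14, Krt15, Krt17, Itga6, Itgb4, Sfn, Perp and Col17a1, and Krt14, Krt5 and Krt17 made up most of the sum. They do not stand for all genes of these cells. Of the barrier lipid genes described below, both listed ones rose, and of 6 others 1 rose and none fell. In such bulk samples fewer cells of a type and less of a transcript per cell cannot be told apart.

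Of the 39 lipid genes, 17 rose with Trp63 siRNA (43.6%), 3 fell (7.69%) and 19 did not pass the threshold, an adjusted p of 0.05 in limma's test over all 22626 probe sets. Over all 12393 genes the called share was 16.6%, with 8.03% higher and 8.56% lower, and among the 6892 genes at or above the median level it was 23.0%, with 12.0% higher and 11% lower. Rises made up a larger share of the lipid genes than of the array, and falls a share near the background. Because the genes were chosen with earlier results of these data known, these shares cannot be read apart from that choice. The median log2 difference of the 39 genes was 0.17, beside -0.04 for all genes. The rises were led by the sphingosine-1-phosphate transporter gene Spns2, the lipid carrier gene Fabp4 and the lipoprotein lipase gene Lpl, and the 3 falls were Elovl6, Degs1 and Fabp5. Without control replicate 6 the count was 8 higher and 2 lower, and without silenced replicate 1 it was 18 higher and 5 lower.

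**Figure D1:**
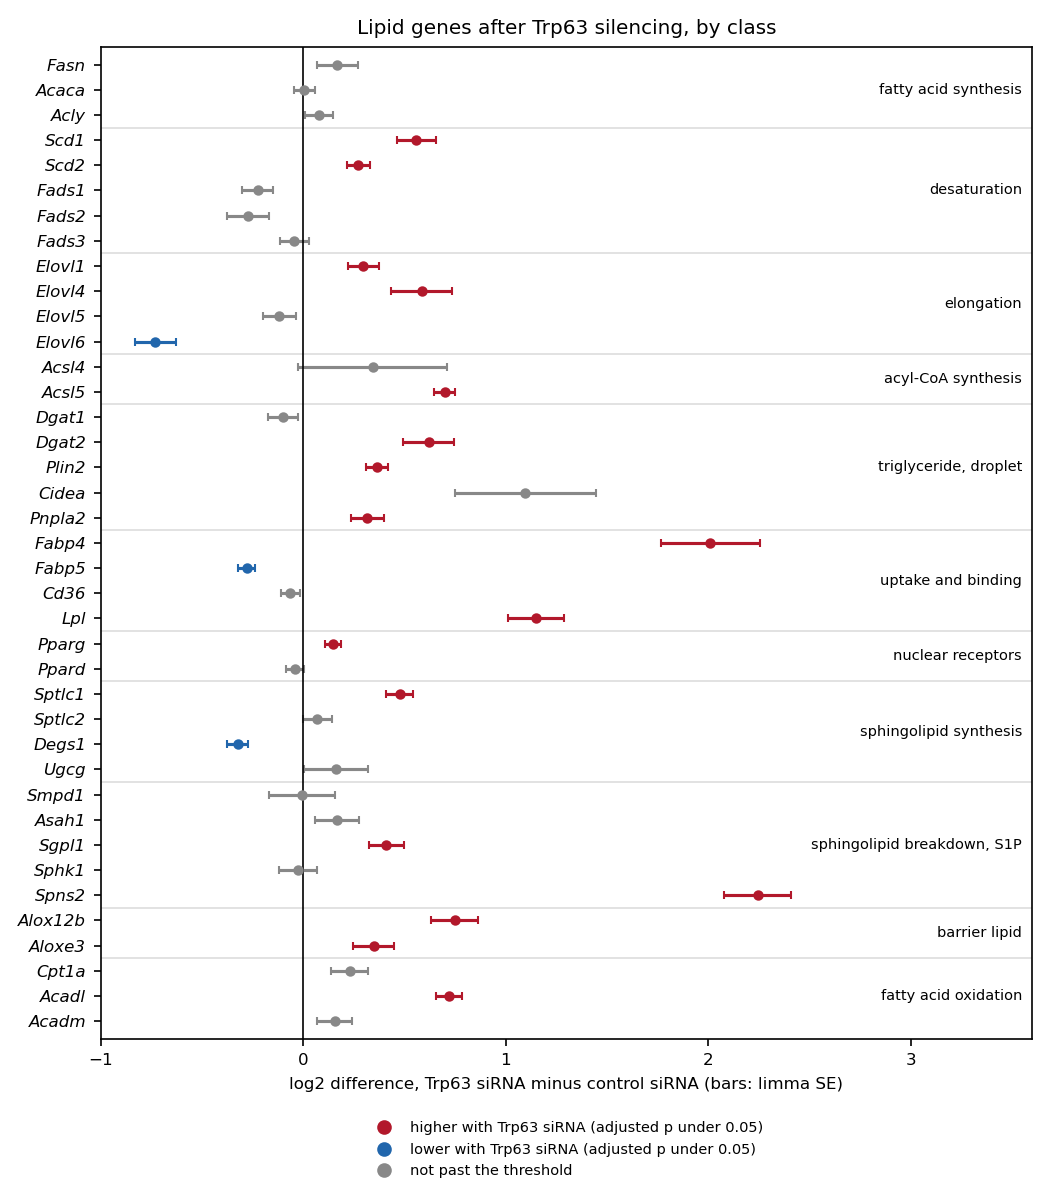
Log2 difference (Trp63 siRNA minus control siRNA, x axis) of the 39 measured lipid genes in 11 classes, with bars for limma's standard error; red and blue points passed an adjusted p of 0.05. Spns2 and Fabp4 lie at 2.24 and 2.01, and Elovl6 is lowest at -0.73.

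The 5 silenced values lay on one side of both controls for 24 of the 39 genes, 19 above and 5 below. The corresponding shares over all 12393 genes were 38.3% in either direction, 14.3% above and 24.0% below, and over the 6892 brighter genes 47.0%, 20.3% and 26.7%. All 20 called genes were among these 24. The others were Fads1 and Fads2 below and Cpt1a and Acadm above.

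Promoter sequence was looked up for the genes with the largest changes. RefSeq windows (build GRCm38.p6) were found for 28 of the 39 genes. Those without one were Scd1, Scd2, Fads1, Dgat1, Dgat2, Cidea, Fabp4, Fabp5, Lpl, Asah1 and Aloxe3. The 250 bases before the listed start are shown for Spns2 (chr11:72475028-72475277, minus strand, with a listed start inside the gene) and Elovl6 (chr3:129532136-129532385, plus strand), the largest rise and the largest fall. Capitals mark matches, on either strand, to any of 5 motifs: the nuclear receptor half-site AGGTCA, the CCAAT box CCAAT, the E-box CACGTG, a sterol response element TCACNCCAC, and the p53-family half-site that p63 can bind.
Spns2: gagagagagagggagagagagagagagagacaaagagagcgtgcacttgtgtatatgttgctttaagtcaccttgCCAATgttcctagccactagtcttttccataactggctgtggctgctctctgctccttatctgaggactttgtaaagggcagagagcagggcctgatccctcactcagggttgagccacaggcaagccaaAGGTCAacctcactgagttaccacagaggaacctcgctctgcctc
Elovl6: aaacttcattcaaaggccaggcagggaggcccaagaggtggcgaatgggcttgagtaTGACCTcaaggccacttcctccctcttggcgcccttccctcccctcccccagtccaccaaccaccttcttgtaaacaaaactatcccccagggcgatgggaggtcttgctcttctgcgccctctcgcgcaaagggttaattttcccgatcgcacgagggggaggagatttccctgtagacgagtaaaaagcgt

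Spns2 held a CCAAT box and a nuclear receptor half-site, and Elovl6 held the same half-site on the opposite strand. The nuclear receptor half-site lay in the windows of 11 of the 28 lipid genes, beside 15.8% of 27025 genes with a window (14.0% of 32851 windows). The CCAAT box lay in those of 15, beside 37.5% of genes (33.8% of windows), and the E-box in those of 3, beside 6.86% (6.02% of windows). The p53-family half-site was found in 2 of the 28 and in none of the called genes with a window (11 that rose and 2 that fell), beside 8.20% of genes (7.13% of windows), and the sterol response element in none, beside 1.22% (1.05% of windows). These matches are descriptions of the letters in these windows.

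No measured gene of fatty acid synthesis passed the threshold. Fasn, the fatty acid synthase gene, read 1743 ± 191 (SD, n = 5) with Trp63 siRNA and 1543 ± 76.9 (SD, n = 2) with control siRNA, a log2 difference of 0.17 (SE 0.10, limma adjusted p = 0.30). Acly, which makes cytosolic acetyl-CoA from citrate, differed by 0.08 at its brightest of 5 probe sets, none of which passed. Acaca, which makes malonyl-CoA, differed by 0.01 but lay below the array medians throughout, with 109 and 108 as group means. Of 7 other measured genes of this class none passed, and 4 lay below the array medians throughout. The lipogenic regulator gene Srebf1, brighter than those, read lower on every silenced array than on either control (-0.31, limma adjusted p = 0.0585).

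Among the desaturases, the stearoyl-CoA desaturase genes rose and the front-end desaturase genes did not pass. Scd1, which makes oleate, read 1628, 1512, 1256, 1421 and 1342 with Trp63 siRNA against 979 and 947 with control siRNA, a 1.47-fold rise (log2 difference 0.56, SE 0.097, limma adjusted p = 0.0047). The lowest silenced array was thus above the higher control. Scd2, its close relative, rose at all 3 of its probe sets, by 0.27, 0.56 and 0.74 in order of falling brightness (limma adjusted p = 0.0122, 0.000797 and 0.000192), so the size depended on the probe set. The calls of the brightest Scd2 probe set and of Scd1 were lost without control replicate 6 (limma adjusted p = 0.0525 and 0.0595), and that of Scd2 also without control replicate 5 (0.118). Fads1 and Fads2, which desaturate polyunsaturated fatty acids, read lower on every silenced array than on either control, with log2 differences of -0.23 and -0.27 (limma adjusted p = 0.0814 and 0.108). Without silenced replicate 1 both passed (limma adjusted p = 0.0302 and 0.0399). Fads3 differed by -0.04 and its groups overlapped. Degs2, which desaturates and hydroxylates sphingoid bases, and Scd3 were the only other genes of this class measured. Degs2 rose 3.15-fold (log2 difference 1.66, limma adjusted p = 0.000469), with means of 865 and 271. Scd3 rose by 0.28, but passed with neither control alone (limma adjusted p = 0.109 with control replicate 5 and 0.116 with control replicate 6).

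The elongase genes did not move in one direction: Elovl1 and Elovl4 rose and Elovl6 fell. Elovl4, which extends fatty acids to the ultra-long chains of barrier ceramides, read 2455, 3133, 2367, 2758 and 2652 with Trp63 siRNA against 2162 and 1445 with control siRNA (log2 difference 0.59, SE 0.15, limma adjusted p = 0.0282). Elovl1, which makes saturated very-long-chain acyl-CoA, was tightly grouped on the silenced arrays, at 1921 ± 30.4 (SD, n = 5), against 1568 ± 226 (SD, n = 2) in controls, a difference of 0.30 (SE 0.076, limma adjusted p = 0.0283). Both calls rested on the lower control: without control replicate 6 the differences were 0.30 for Elovl4 and 0.15 for Elovl1 (limma adjusted p = 0.236 and 0.226), and both calls were also lost without silenced replicate 2, 4 or 7. A dimmer Elovl1 probe set differed by 0.50 (limma adjusted p = 0.0013). Elovl6, which extends palmitate to stearate, read 154, 173, 164, 170 and 204 with Trp63 siRNA against 324 and 271 with control siRNA, a 1.66-fold fall (log2 difference -0.73, SE 0.10, limma adjusted p = 0.00152). Its second probe set fell by 0.56 on the log2 scale, and the groups overlapped at neither. Elovl5, which elongates polyunsaturated fatty acids, differed by -0.12 (limma adjusted p = 0.361). Of 8 other measured elongation genes only Hsd17b12, the ketoacyl-CoA reductase gene of the cycle, rose (0.26, limma adjusted p = 0.0417), and that call ended when either control was left out (0.318 for replicate 5 and 0.0631 for replicate 6).

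Acsl5, a long-chain acyl-CoA synthetase gene, rose with little spread between the silenced arrays. It read 2714, 2780, 2672, 2799 and 2779 with Trp63 siRNA against 1761 and 1613 with control siRNA, a 1.62-fold difference (log2 difference 0.70, SE 0.052, limma adjusted p = 5.55e-05). The silenced arrays spanned less than the gap to the controls. Acsl4, which prefers arachidonate, read 190, 329, 554, 534 and 545 against 275 and 354 in controls. Silenced replicates 1 and 2, where melanocyte markers were high, stood well below replicates 3, 4 and 7, the groups overlapped, and the difference of 0.34 did not pass (SE 0.37, limma adjusted p = 0.565). Among 10 other genes of acyl-CoA metabolism, 2 rose and 2 fell. Slc27a4, the fatty acid transport protein gene needed for the epidermal barrier, rose 1.82-fold (0.87, limma adjusted p = 0.00197) and the acyl-CoA thioesterase gene Acot7 rose, with means of 821 and 509 (0.68, limma adjusted p = 0.00564, and 0.0821 without control replicate 6). Dbi, which encodes the acyl-CoA binding protein, fell 1.35-fold (-0.44, limma adjusted p = 0.000386).

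**Figure D2:**
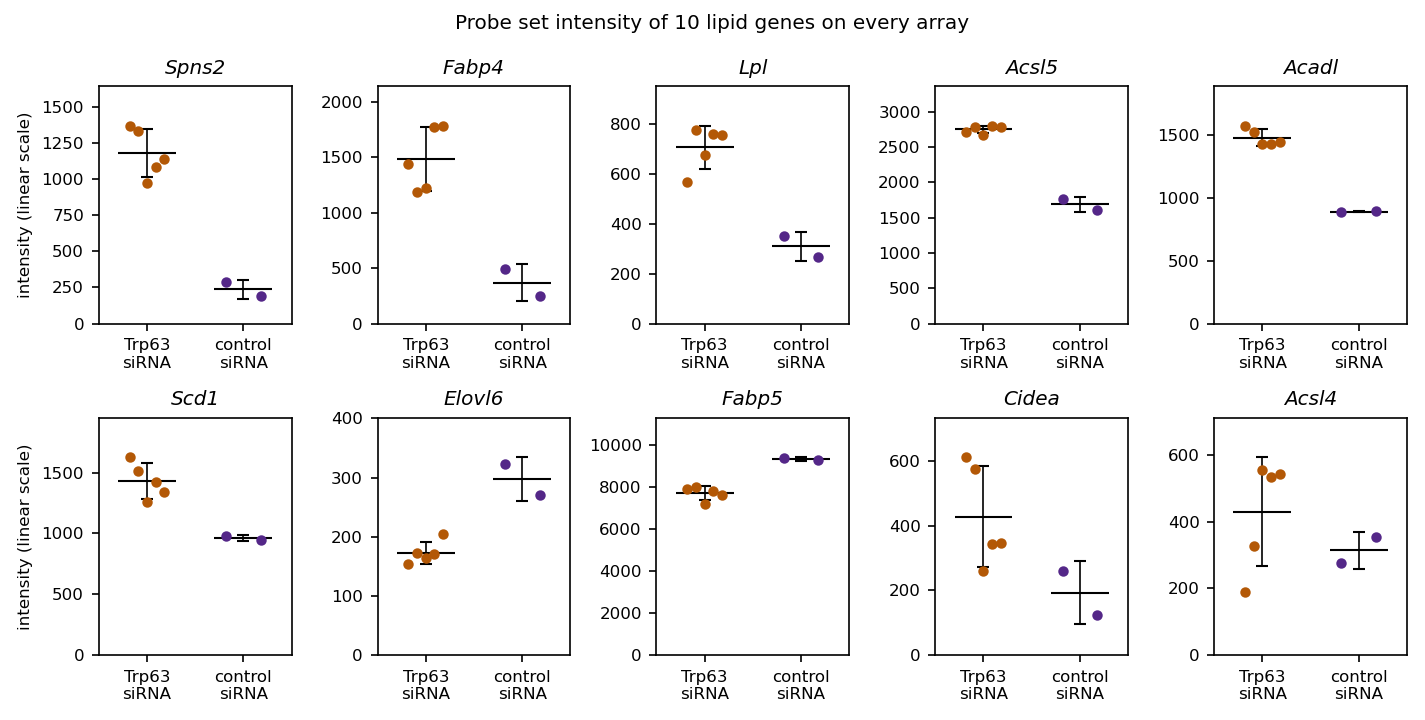
Probe set intensity (linear scale, y axis from 0) of 10 lipid genes on each of 5 Trp63 siRNA and 2 control siRNA arrays, with lines for the group mean and bars for the SD. The groups do not overlap for Spns2, Fabp4, Lpl, Acsl5, Acadl, Scd1, Elovl6 and Fabp5, and they overlap for Cidea and Acsl4.

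Of the 5 listed genes of triglyceride storage and lipid droplets, 3 rose, none fell and 2 did not pass. Dgat2, which catalyses the last step of triglyceride synthesis, read 1344, 1277, 1030, 1200 and 1178 with Trp63 siRNA against 893 and 675 with control siRNA, a 1.54-fold rise (0.62, SE 0.12, limma adjusted p = 0.00974, and 0.115 without control replicate 6). Dgat1, an unrelated enzyme for the same step, differed by -0.10 and its groups overlapped (limma adjusted p = 0.391). Plin2, the coat protein gene of lipid droplets, rose 1.29-fold to 4093 ± 136 (SD, n = 5), against 3177 ± 248 (SD, n = 2) in controls (0.37, SE 0.054, limma adjusted p = 0.00212). Pnpla2, the adipose triglyceride lipase gene, rose 1.25-fold (0.32, limma adjusted p = 0.0282), but it did not pass with control replicate 6 alone (limma adjusted p = 0.0922), with control replicate 5 alone (0.191) or with silenced replicate 4 removed, and its dimmer probe set differed by -0.14 (limma adjusted p = 0.136). Cidea, a droplet protein gene of fat and sebaceous cells, read 613, 575, 260, 343 and 348 against 261 and 124, with the highest values on silenced replicates 1 and 2, where melanocyte markers were also high. Its difference of 1.10 was large but did not pass (SE 0.35, limma adjusted p = 0.0631), and it was 1.14 among the 3 arrays with high melanocyte markers and 1.24 among the 4 with low ones. Cidea passed when melanocyte level, a split chosen after seeing the data, was a block (1.19, limma adjusted p = 5.49e-05) and without silenced replicate 3 (limma adjusted p = 0.0357). Of 13 other measured genes of this class 4 rose and 1 fell. The largest rises were Lpin2, a phosphatidate phosphatase gene (2.17-fold, means of 1067 and 487, limma adjusted p = 0.00197), Agpat3, an acyltransferase gene (1.71-fold, 0.77, limma adjusted p = 0.00124), and Lipe, the hormone-sensitive lipase gene (1.68-fold, 0.75, limma adjusted p = 0.00245).

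Lipid uptake and carriage held the second largest rise and a fall in the same gene family. Fabp4, the fatty acid binding protein of adipocytes, macrophages and capillary endothelium, read 1437, 1188, 1226, 1774 and 1787 with Trp63 siRNA against 489 and 250 with control siRNA, a 4.03-fold rise (2.01, SE 0.25, limma adjusted p = 0.000779). The controls themselves differed, so that the log2 difference was 1.55 against control replicate 5 alone and 2.48 against control replicate 6 alone. A second probe set gave 2.03, and the 2 dimmest of the 4 differed by 0.07 and 0.12 without passing. Fabp5, the epidermal fatty acid binding protein, read 7928, 7993, 7179, 7837 and 7629 with Trp63 siRNA against 9412 and 9287 with control siRNA, a 1.21-fold fall (-0.28, SE 0.042, limma adjusted p = 0.00227), and its dimmer probe set fell by 0.51 on the log2 scale. The genes of this pair lie on chromosome 3 with 2 protein-coding genes between them. Lpl, whose enzyme releases fatty acids from lipoproteins, read 565, 773, 675, 760 and 753 with Trp63 siRNA against 351 and 268 with control siRNA, a 2.22-fold rise (1.15, SE 0.14, limma adjusted p = 0.00074). Cd36, a fatty acid receptor gene, lay below the array medians at all 3 of its probe sets and did not pass. Of 6 other genes of this class 1 passed. Angptl4, an inhibitor of lipoprotein lipase, rose 1.96-fold (0.97, limma adjusted p = 0.00466, and 0.064 without control replicate 6) and was not called at its second probe set.

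Fabp4 and Lpl are also made by other cells, and markers of 6 other cell types were read for comparison. Of 5 measured adipocyte markers 1 rose (Lipe) and 1 fell (Cidec). The defining markers Adipoq and Retn lay below the array median on all 7 arrays, as did Cidec. The sum of the list was 767 to 899.7 with Trp63 siRNA and 720.2 to 728 with control siRNA. Lipe, with means of 288 and 164, carried that rise. Adipoq, Retn and Cidec differed by -0.07, -0.07 and -0.14, and Lep by 0.04. All 7 endothelial markers lay below the array medians and none passed, with sums of 735 to 764 and 759.8 to 816. Of 9 macrophage markers 2 rose (Cd68 and Cd14), 1 fell (Tyrobp) and 6 lay below the array medians. Their sums of 1579 to 1769 and 1486 to 1587 overlapped, and 6 of the 9 log2 differences were negative. Of 6 sebocyte markers 2 rose (Scd3 and Prdm1), none fell and 3, among them Scd3, lay below the medians. The sums were 1917 to 2588 and 2062 to 2422. Scd3 and Elovl3 of this list and Lipe and Cidec of the adipocyte list are also counted among the other pathway genes. Of 8 fibroblast markers 1 rose (Col1a1) and 4 lay below the medians, with sums of 1445 to 1779 and 1274 to 1529. None of 6 melanocyte markers passed, and their sums were 6304 to 11207.5 and 6199 to 9420.1. The part of these cells in the lipid gene results was not tested.

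Both nuclear receptor genes that control these carriers and droplet genes were dim. Pparg, the receptor that drives fat cell and sebocyte differentiation, read 102, 106, 101, 105 and 103 with Trp63 siRNA against 96.3 and 87.8 with control siRNA, a rise of 0.15 (SE 0.038, limma adjusted p = 0.0292). It lay below the array medians throughout, and its call was lost without control replicate 6 (limma adjusted p = 0.245), without silenced replicate 2, 4 or 7, and without a variance trend. Ppard, the form most abundant in epidermis, differed by -0.04 (limma adjusted p = 0.596). None of 6 other receptor and coactivator genes passed.

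In sphingolipid synthesis Sptlc1 rose and Degs1 fell. Sptlc1 encodes a subunit of serine palmitoyltransferase, which starts sphingoid base synthesis. It read 1542, 1468, 1404, 1541 and 1524 with Trp63 siRNA against 1114 and 1027 with control siRNA, a 1.39-fold rise (0.48, SE 0.066, limma adjusted p = 0.00152), and 3 of its 4 probe sets rose. Sptlc2, which encodes the catalytic partner, differed by 0.07 and its groups overlapped (limma adjusted p = 0.545). Degs1, the desaturase that turns dihydroceramide into ceramide, read 2208, 2117, 2242, 2240 and 2225 against 2677 and 2852 in controls, a 1.25-fold fall (-0.32, SE 0.051, limma adjusted p = 0.00298). Its second probe set fell as well. With control replicate 5 alone Degs1 did not pass (limma adjusted p = 0.0504). Ugcg, the glucosylceramide synthase gene, differed by 0.16 at its brightest probe set (limma adjusted p = 0.521) and rose by 0.54 and 0.56 at the other 2 (limma adjusted p = 0.00503 and 0.00467), so its call depended on the probe set. Of 8 other genes of this class 1 rose and 2 fell. Cers2, a ceramide synthase gene for very-long-chain acyl groups, rose 2.25-fold, with means of 482 and 205 (1.17, limma adjusted p = 3.71e-05). Cerk, the ceramide kinase gene, fell 1.43-fold (-0.51, limma adjusted p = 0.00319, and 0.0532 without control replicate 6), and Sgms1, a sphingomyelin synthase gene, fell 1.21-fold (-0.28, limma adjusted p = 0.0343, and 0.256 without control replicate 6) but was not called at its second probe set.

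Spns2, which exports sphingosine-1-phosphate, had the largest rise of the 39 genes. It read 1370, 1331, 975, 1084 and 1136 with Trp63 siRNA against 285 and 192 with control siRNA, a 4.74-fold rise (2.24, SE 0.16, limma adjusted p = 5.3e-05). The lowest silenced array was more than 3 times the higher control. Sgpl1, the lyase that cleaves sphingosine-1-phosphate, rose 1.33-fold (0.41, SE 0.086, limma adjusted p = 0.0117) and its dimmer probe set by 0.82 (limma adjusted p = 0.00107). The call at the brighter probe set was lost with control replicate 6 alone (limma adjusted p = 0.10) and with control replicate 5 alone (0.0694). Sphk1, the kinase that makes sphingosine-1-phosphate, read 316, 280, 252, 247 and 256 against 269 and 279 in controls and did not differ beyond this spread (-0.02, limma adjusted p = 0.885). Asah1, the acid ceramidase gene, differed by 0.17 (limma adjusted p = 0.325, and 0.027 without silenced replicate 1) and Smpd1, the acid sphingomyelinase gene, by -0.01 (limma adjusted p = 0.983), with overlapping groups for both. Of 15 other genes of this class 4 rose and 1 fell. The ceramidase genes Acer2 and Acer1 rose 3.42-fold (1.78, limma adjusted p = 0.00122, not called at the second probe set of Acer2) and 1.67-fold (0.74, limma adjusted p = 0.00319, and 0.0559 without control replicate 6), and the lipid phosphatase gene Plpp1 rose 1.77-fold (0.82, limma adjusted p = 0.00013). The sphingosine-1-phosphate receptor genes S1pr1, S1pr3 and S1pr5 lay below the array medians throughout. They differed by -0.05, -0.03 and -0.10 and did not pass, but at this level a change could be missed.

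**Figure D3:**
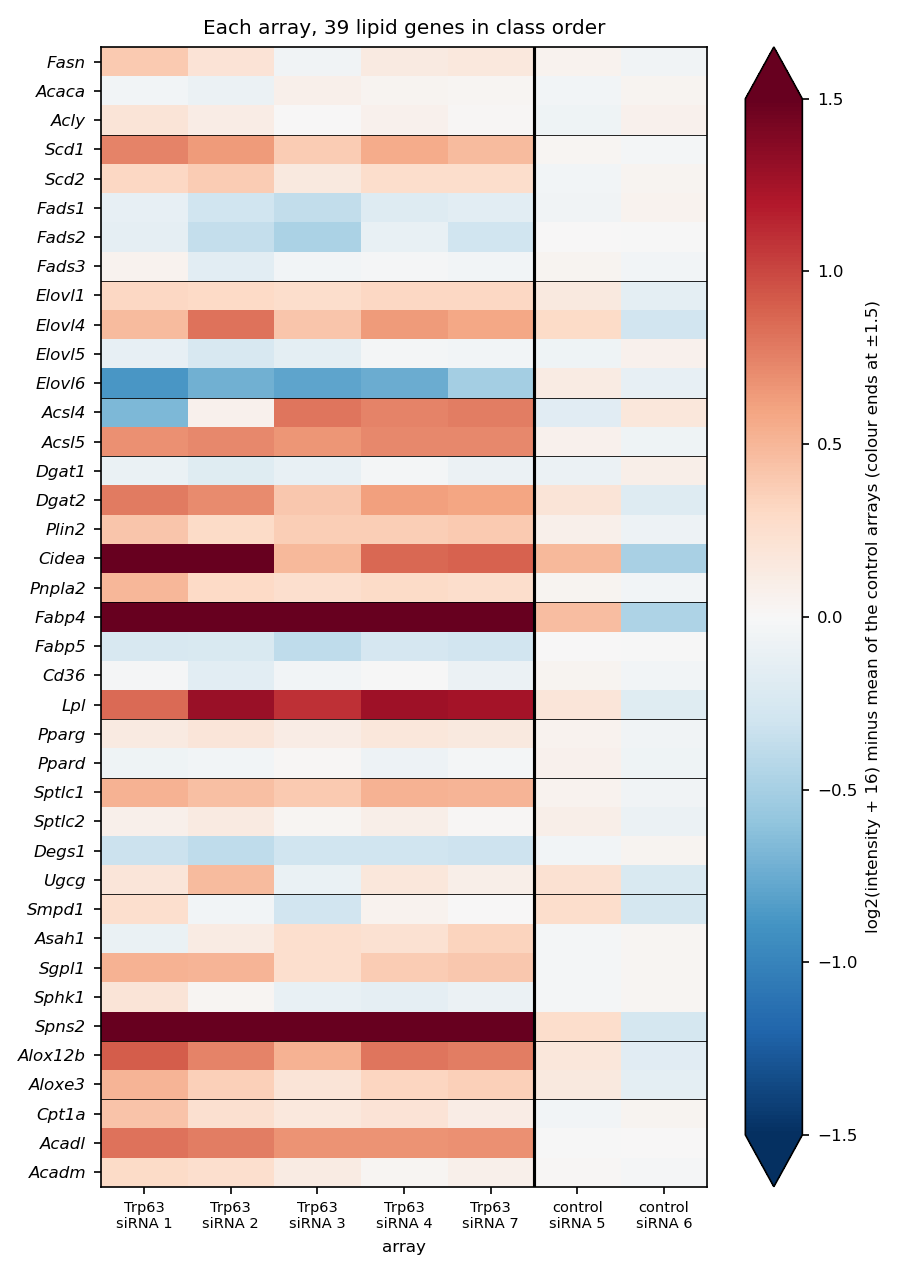
Each of the 39 lipid genes (rows, in class order) on each array (columns), as log2(intensity + 16) minus the mean of the 2 control arrays, with colours ending at ±1.5. Spns2, Fabp4 and Lpl are high and Elovl6 low on all 5 Trp63 siRNA arrays, while Acsl4 and Cidea differ between silenced replicates 1 and 2 and the others.

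Both listed epidermal lipoxygenase genes rose. Alox12b and Aloxe3 act in sequence on the linoleate of barrier ceramides and are neighbours on chromosome 11. Alox12b read 337, 298, 254, 311 and 304 with Trp63 siRNA against 196 and 150 with control siRNA, a 1.68-fold rise (0.75, SE 0.12, limma adjusted p = 0.00271). Aloxe3 read 328, 293, 260, 287 and 293 against 252 and 201, a 1.27-fold rise (0.35, SE 0.10, limma adjusted p = 0.046), and it did not pass with control replicate 5 alone (limma adjusted p = 0.337) or with silenced replicate 2, 4 or 7 removed. The lowest silenced Aloxe3 value lay just above the higher control. Blocking on spike level, which compares only silenced replicates 1 and 4 with the controls, also ended this call. The difference was then 0.42 (limma adjusted p = 0.0752). Of 6 other measured barrier genes 1 passed, and the lipoxygenase gene Alox12e, with means of 236 and 233, did not (0.02, limma adjusted p = 0.881). Sult2b1, the cholesterol sulfotransferase gene of the upper epidermis, rose 1.99-fold, with means of 2293 and 1162 (0.99, limma adjusted p = 0.00668, and 0.0807 without control replicate 6).

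Fatty acid oxidation genes split. Acadl, the long-chain acyl-CoA dehydrogenase gene, read 1572, 1519, 1424, 1423 and 1445 with Trp63 siRNA against 888 and 890 with control siRNA, a 1.65-fold rise (0.72, SE 0.064, limma adjusted p = 0.000135). Its second probe set read below 101 on all arrays and differed by 0.01. Cpt1a, which admits long-chain fatty acids to mitochondria, read 916, 800, 752, 781 and 732 against 655 and 696. The groups did not overlap, but the difference of 0.23 did not pass (SE 0.092, limma adjusted p = 0.128), while 1 of its 2 dimmer probe sets did (0.34, limma adjusted p = 0.0263). Acadm, the medium-chain dehydrogenase gene, differed by 0.16 (limma adjusted p = 0.254). Of 14 other genes of this class 1 rose and 2 fell. Hadh and Echs1, which encode the short-chain hydroxyacyl-CoA dehydrogenase and enoyl-CoA hydratase, both fell 1.52-fold (-0.60 for each, limma adjusted p = 0.000508 and 0.00101), and Hadhb, of the trifunctional protein, rose 1.26-fold (0.33, limma adjusted p = 0.0111, and 0.123 without control replicate 6) but was not called at its second probe set.

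Over the 11 classes, the other pathway genes numbered 95 measured, of which 17 rose (17.9%) and 8 fell (8.42%), while 70 missed the threshold. Their median log2 difference was -0.004. The called share was 26.3%, beside 16.6% of all genes and 23.0% of those at or above the median level. The 26.3% includes 25 genes that lay below the array median on every array, so it is not a like-for-like comparison with the 23.0%. These counts were 9 higher and 3 lower without control replicate 6.

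**Figure D4:**
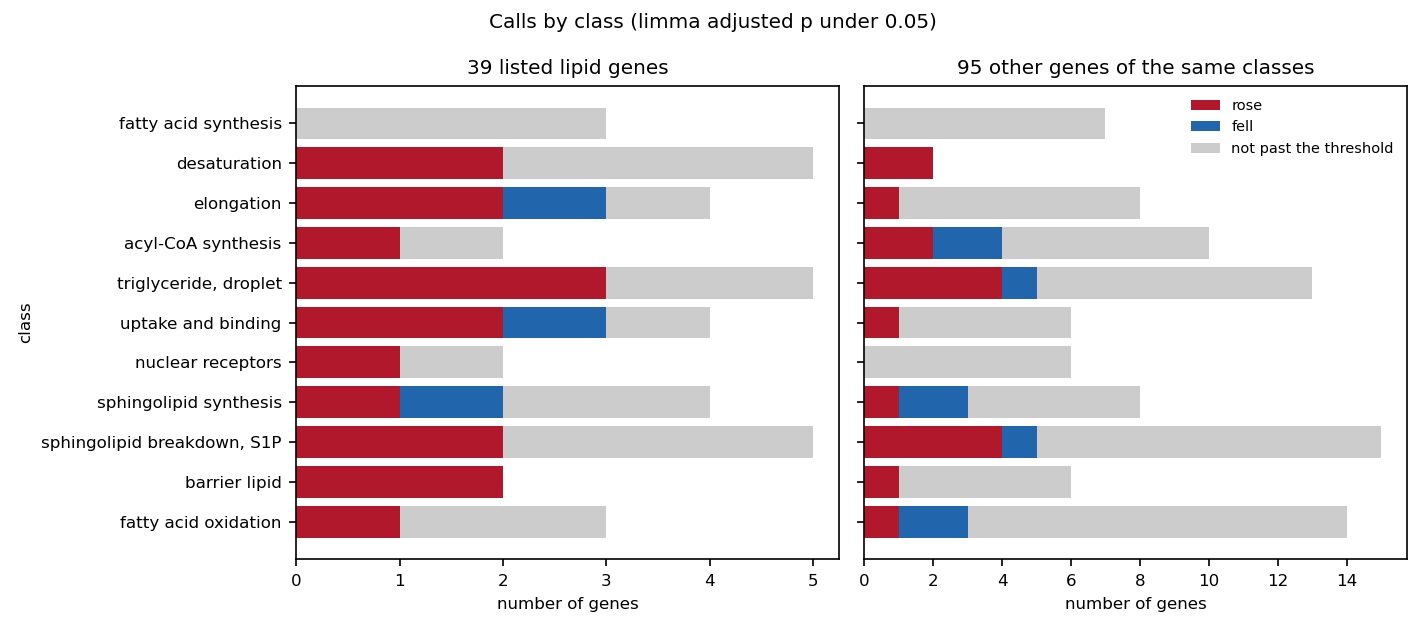
Number of genes (x axis) that rose, fell or did not pass limma's adjusted p of 0.05 in each of 11 classes (y axis), for the 39 listed lipid genes (left) and 95 other genes of the same classes (right). Neither panel shows a called gene of fatty acid synthesis, and both barrier lipid genes on the left rose.

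The control arrays were not alike for the lipid genes that rose. Control replicate 6 read lower than control replicate 5 for 14 of these 17 genes and for 26 of all 39 lipid genes, beside 58.7% of all genes. The median log2 difference between them was -0.16 for the 17 genes and -0.09 for the 39, beside -0.02 for all genes. Against control replicate 5 alone, the differences that stayed past the threshold were Spns2 (1.98), Fabp4 (1.55), Lpl (0.97), Acadl (0.72), Acsl5 (0.64), Alox12b (0.58), Sptlc1 (0.42) and Plin2 (0.29), together with the falls of Elovl6 (-0.85) and Fabp5 (-0.29).

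**Figure D5:**
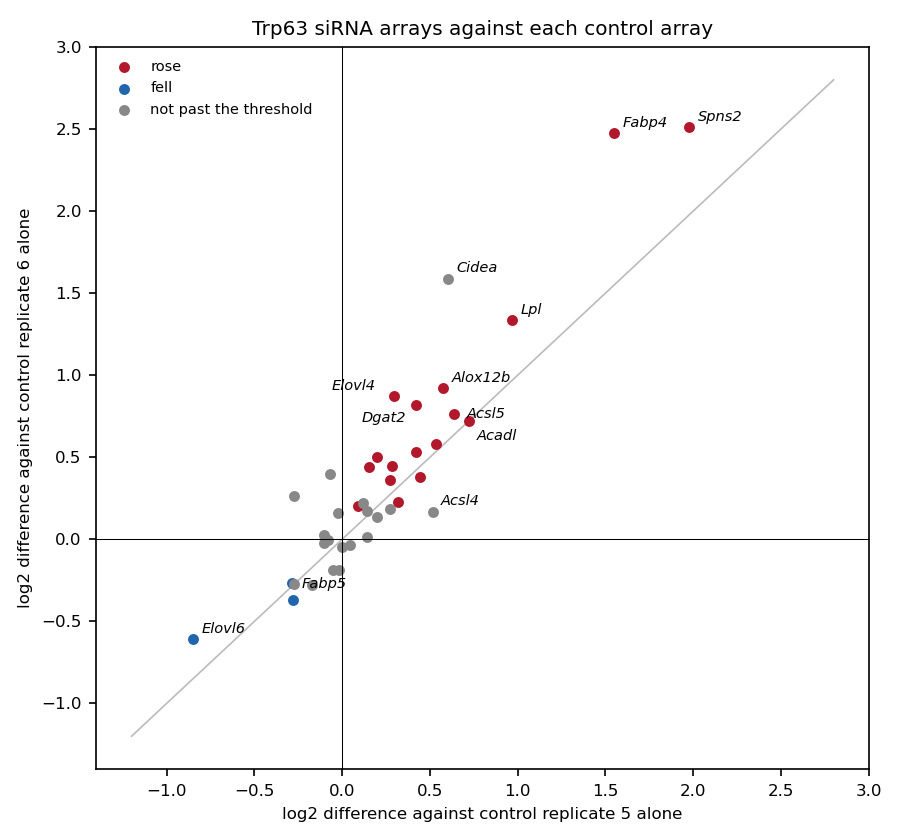
Log2 difference of the Trp63 siRNA arrays against control replicate 5 alone (x axis) and against control replicate 6 alone (y axis) for each of the 39 lipid genes, with a line of equality. Fabp4 lies at 1.55 and 2.48 and Spns2 at 1.98 and 2.51, above the line, and Acadl lies on it at 0.72 and 0.72.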

How the data were processed

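Total RNA was extracted with Trizol and made into biotinylated complementary RNA for Affymetrix arrays, per the labels' protocols. The deposited table holds 1 linear-scale intensity per probe set and array; the authors' probe summary, background correction and normalization are not given in the sources used here. In all it lists 22690 probe sets, of which 64 are array controls and the remaining 22626 were tested; 20380 had 1 gene symbol in the platform annotation, 691 several and 1555 none, and names were updated by Entrez ID. Intensities became log2(intensity + 16), without a filter on dim probe sets. Folds are taken on this scale and so understate the change of dim genes. The comparison used limma 3.58.1 (R 4.3.3), a linear model per probe set moderated by eBayes with trended variance. Its p-values were adjusted by the Benjamini-Hochberg method across the 22626 probe sets and called at 0.05, and each adjusted p printed comes from such a fit. The procedure was tested on simulated data with normal noise for 22626 probe sets. It recovered 43 of 50 changes of 0.5 on the log2 scale, 100 of 100 changes of 1 and 50 of 50 changes of 2. There were 19 false calls beside these recovered changes, and no smaller change was simulated. The noise was independent between arrays, so these rates need not hold for real arrays that share effects such as RNA quality. The genes and lists were chosen with earlier results of these data known. All 39 measured genes are accounted for, and up to 3 called genes with the largest difference per class were named among the 95 other pathway genes. Alternatives covered normalization, pseudocounts of 1 and 64, a filter at the 25th percentile, variance settings, array weights, which probe set represents a gene, and fits short of 1 array each. With 1 control left, that array is assumed to vary like the silenced ones. Array splits at the largest gap in melanocyte marker or spike level were added as blocks after seeing the data. Srebf1, the sphingosine-1-phosphate receptor genes and the marker genes were named after their values were seen. Plots were made in Python 3.11.15 with matplotlib 3.10.9.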

Additional observations from a re-analysis of the deposited data

Results flagged for a closer look

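In 2 of the 39 lipid genes 1 of the 5 Trp63 siRNA arrays stood apart from the other 4, by a gap above 0.71 of the group's range; chance flags about 1 in 20 groups. Pnpla2 read 398 on silenced replicate 1, the highest of the 5, with a gap of 0.802 of the range. Degs1 read 2117 on silenced replicate 2, the lowest of the 5, with a gap of 0.735 of the range.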

How the results depend on the processing

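Of the 20 called lipid genes, 9 kept their call in every alternative that applied to them: Spns2, Fabp4, Lpl, Acsl5, Sptlc1, Plin2, Alox12b, Elovl6 and Fabp5. Spns2, Acsl5, Plin2 and Alox12b have 1 probe set each, so the choice of probe set was not tried for them. Acadl lost its call only at its second probe set, and the only reversal among called genes was Pnpla2 at its second probe set (-0.14). Leaving out 1 array moved the lipid genes that rose between 8 and 18 and those that fell between 2 and 5, and the other pathway genes between 9 and 19 and between 3 and 16. Of the called lipid genes, 10 lost their call without control replicate 6 and 3 without control replicate 5. The pathway genes that fell numbered 14 with array weights and 4 when spike level was a block, and those that rose numbered 27 when melanocyte level was. The cause was not tested. Blocking on spike level left 12 lipid genes that rose. It ended the calls of Scd2 (limma adjusted p = 0.051), Elovl1 (0.0964), Elovl4 (0.129), Pparg (0.0999) and Aloxe3 (0.0752). Their differences were 0.29, 0.31, 0.55, 0.15 and 0.42 with the block, and 0.27, 0.30, 0.59, 0.15 and 0.35 without it. Both controls were low in spike level, so with this block only silenced replicates 1 and 4 were compared with them. The filter on dim probe sets left 35 of the 39 genes. No paired analysis was possible because no replicate number occurs in both groups. The 2 control arrays limit every difference.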

Other observations

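Several genes split the 5 Trp63 siRNA arrays, and those named here were picked after their values were seen. On the log2 scale, the mean of silenced replicates 1 and 2 minus that of replicates 3, 4 and 7 was 0.88 for Cidea, 1.02 for the acyl-CoA thioesterase gene Acot1, 0.72 for its relative Acot2 and 0.64 for the monoglyceride lipase gene Mgll. It was -1.07 for Acsl4 and -0.67 for Acer2, and of these 6 genes Acer2 alone was called between Trp63 siRNA and control siRNA. Acot1 also differed between the control arrays, with 786 on control replicate 5 and 284 on control replicate 6.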
